A study of Homo sapiens with 5 samples.

Results

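The comparison described here sets HEK 293T cells collected after 3 days in 1.0 µM 5-aza-CdR (5-aza-2'-deoxycytidine, also called decitabine) against HEK 293T cells grown with no drug. HEK 293T is an established line derived from human embryonic kidney and transformed by viral genes, and it is 1 line with no genetic difference between the groups. The medium was changed daily in both groups, which each hold 2 RNA-seq libraries of ribosomal RNA-depleted RNA. The fifth library of the series, from cells kept in culture after drug removal, lies outside the comparison. Every entry of the authors' 2 tables was taken by its value in treated and in control cells, and entries whose larger value was at least 1 FPKM (fragments scaled to transcript length and to the mapped total) formed the set in which sizes were read. That set held 12396 of 20220 RefSeq entries, of which 682 were listed at 0 in control and 11714 above 0. In the table of long noncoding RNAs (lncRNAs) it held 2704 of 10010 loci, of which 1381 were listed at 0 in control.

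5-aza-CdR is a cytidine analogue that cells phosphorylate and build into DNA as they replicate it. DNA methyltransferases that act on the built-in analogue become covalently trapped and are degraded, so methylation is diluted with each division. Methylated promoters are commonly silent, and those of cancer-testis genes, imprinted genes and some developmental genes are textbook examples. DNA methylation itself was not analysed here, and the values below are levels of RNA.

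The authors combined both libraries of a group into 1 FPKM value per entry. No spread between replicates, no SD and no test per entry can therefore be given, and a ratio below is the treated value over the control value of the same entry. Significance per entry is known only from the q-values of the authors' deposited table. The depth in reads is unknown. Among 12366 entries above 0 in both groups, the ratio that recurred most often was 0.757, shared by 86 entries against 76 for the next, and if it marks entries with an equal number of fragments, treated values rest on more fragments than control values, by a factor of 1.32. Fewer cells of a type and less RNA per cell cannot be told apart in such bulk RNA. Markers of other cell types were low: 21 of 22 blood cell markers were under 1 FPKM in control, 19 of them listed at 0, and their summed level was 2.89 FPKM in control and 12.2 FPKM under the drug. Among those, PTPRC, CD3E and MS4A1 were at 0 in control and at or under 0.413 FPKM in treated cells. Of 14 endothelial markers 12 were under 1 FPKM in control, with PECAM1 and CDH5 at 0 and a summed level of 17.4 and 13.3 FPKM. The neurofilament gene NEFL was at 28.9 and 22.2 FPKM, the ubiquitin hydrolase gene UCHL1 at 569 and 476 FPKM and the vimentin gene VIM at 316 and 181 FPKM in control and treated cells, while the kidney tubule genes UMOD and SLC12A1 were at 0 in both and PAX2 was at 0 and 0.146 FPKM.

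Most RefSeq entries lay within 2-fold of control, and the entries that left control at 0 outnumbered those that ended at 0. Within the set, 8802 entries (71.0%) had a ratio between 0.5 and 2. A further 1504 (12.1%) were at least 2-fold higher in treated cells and 1296 (10.5%) at least 2-fold lower. Entries listed at 0 in control numbered 682 (5.5%), against 112 (0.904%) listed at 0 in treated cells. At a level of 10 FPKM or more in the other group these counts were 41 and 9, and at 50 FPKM or more they were 15 and 2. Among entries with a ratio, 618 were at least 4-fold higher and 347 at least 4-fold lower. At 10-fold, 314 were higher and 88 lower. Scaling the treated values by the summed FPKM without the 10 highest entries of each group multiplied them by 1.13, a shift of 0.17 on the log2 scale, and gave 1888 entries higher and 985 lower, so the balance of higher to lower depends on the scaling. In the authors' deposited table, q was under 0.05 for 106 of the entries from 0, 16 of those 2-fold higher, 9 of those 2-fold lower and 22 of those listed at 0 in treated cells. Of the entries 10-fold higher, 2 had such a q in the authors' deposited table, and of those 10-fold lower, 0 did.

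**Figure D1:**
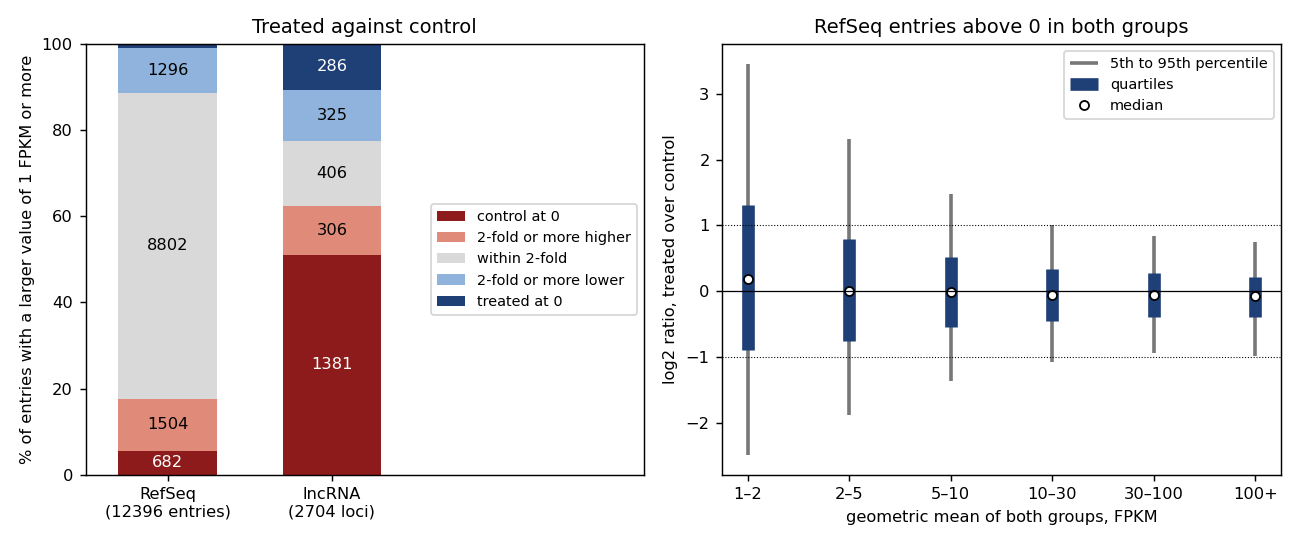
Left, the share of entries in each class of the treated-to-control comparison (y axis, %), in the RefSeq and the lncRNA table, with the number of entries written in each part; the gray part within 2-fold holds 8802 of 12396 RefSeq entries but only 406 of 2704 lncRNA loci. Right, the spread of the log2 ratio (y axis) over RefSeq entries above 0 in both groups, by their geometric mean level in FPKM (x axis), narrowing from −2.49 to 3.46 at 1 to 2 FPKM down to −0.97 to 0.74 at 100 FPKM or more (5th to 95th percentile).

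The spread of the ratio over entries depended on the level. Between geometric means of 1 and 2 FPKM the log2 ratio ran from −2.49 to 3.46 between the 5th and 95th percentiles (863 entries), and 31.2% of entries were 2-fold higher. Between 10 and 30 FPKM the same interval was −1.07 to 1.01 (3704 entries), and at 100 FPKM or more −0.97 to 0.74 (613 entries). Entries at 10 FPKM or more in both groups were therefore read apart: of 5481, 141 (2.57%) were at least 2-fold higher and 223 (4.07%) at least 2-fold lower. With the treated values multiplied by 1.13 as above, these counts were 248 and 114, which turns their order. Entries off in one group and clearly present in the other were read by levels alone. Of 9207 entries under 1 FPKM in control, 201 (2.18%) stood at 5 FPKM or more in treated cells, and these are called switched on below. Of 8382 under 1 FPKM in treated cells, 59 (0.704%) stood at 5 FPKM or more in control. Protein-coding genes made up 157 of the 201 and 27 of the 59, and lncRNA genes 20 and 21.

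**Figure D2:**
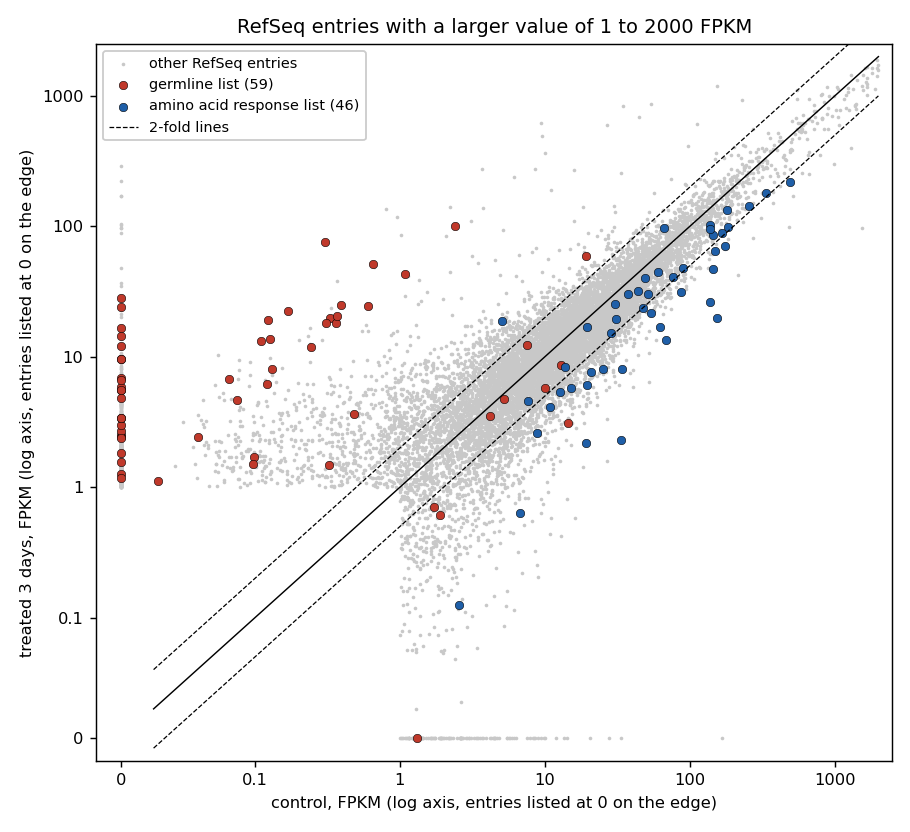
Control (x axis) against treated (y axis) FPKM on log axes for RefSeq entries whose larger value is 1 to 2000 FPKM, with entries listed at 0 drawn along the left and lower edges, the line of equal values and dashed lines at 2-fold. Germline genes (red, 59 in the set) crowd the upper left, where control is under 1 FPKM, and 44 of 46 amino acid response genes (blue) lie below the line of equal values.

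Germline genes were numerous among the switched on entries. These genes are normally transcribed in testis, ovary or early germ cells; many encode cancer-testis antigens, which tumours can re-express. Of 109 entries of this list, 97 were under 1 FPKM in control and 28 of those (28.9%) were switched on, beside 2.18% of all entries under 1 FPKM in control. In the set of sizes, 59 entries comprised 24 from control at 0, 26 at least 2-fold higher, 5 within 2-fold, 3 at least 2-fold lower and 1 listed at 0 in treated cells. Most of these 59 reached 1 FPKM through the treated value alone, so that balance is a description, and the other 50 entries stayed under 1 FPKM in both groups, 28 of them at 0 in both. The summed level of the list was 89.6 FPKM in control and 799 FPKM under the drug. The 28 switched on entries ended between 5.56 and 76.3 FPKM with a median of 14.2 FPKM; 21 of them lie on the X chromosome and 12 were listed at 0 in control. In the authors' deposited table, 9 of the 28 had q under 0.05. Several of these families consist of near-identical copies, among them SPANX, PAGE, GAGE and MAGEA, so the share of reads given to each copy is uncertain.

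Promoter sequences are shown for 3 of these genes because they differ widely in CpG content, the dinucleotide that DNA methyltransferases act on. Each run holds the 250 bases upstream of the first start listed by RefSeq (GRCh38.p14), printed 5′ to 3′ on the gene's strand with every CpG in capitals. TKTL1 (chrX:154295545-154295794, plus strand) has 13 CpG sites, DAZL (chr3:16605424-16605673, minus strand) has 28 and SPANXC (chrX:141242518-141242767, minus strand) has 6.
TKTL1: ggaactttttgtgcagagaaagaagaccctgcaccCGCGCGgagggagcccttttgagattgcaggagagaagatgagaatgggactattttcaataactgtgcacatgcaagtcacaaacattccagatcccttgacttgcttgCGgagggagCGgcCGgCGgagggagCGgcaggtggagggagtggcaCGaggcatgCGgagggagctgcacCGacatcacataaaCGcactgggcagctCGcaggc
DAZL: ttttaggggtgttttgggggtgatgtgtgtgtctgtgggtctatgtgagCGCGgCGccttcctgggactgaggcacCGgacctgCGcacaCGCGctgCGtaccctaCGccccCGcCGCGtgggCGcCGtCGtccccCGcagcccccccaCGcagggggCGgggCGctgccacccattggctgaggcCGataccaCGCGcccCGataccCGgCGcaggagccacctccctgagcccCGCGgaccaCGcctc
SPANXC: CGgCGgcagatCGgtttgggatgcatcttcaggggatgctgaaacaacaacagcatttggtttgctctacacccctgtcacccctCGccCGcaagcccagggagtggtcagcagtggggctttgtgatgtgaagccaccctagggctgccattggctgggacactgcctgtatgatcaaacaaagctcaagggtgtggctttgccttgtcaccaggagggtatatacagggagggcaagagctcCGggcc

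Among the MAGE antigens, a family of ubiquitin ligase partners, 7 of 15 entries under 1 FPKM in control were switched on. The share over all entries under 1 FPKM in control was 2.18%. The 11 in the set reached 1 FPKM through the treated value alone, so none of them could be lower. MAGEB2 was at 0.394 FPKM in control against 24.8 FPKM after treatment. MAGEA1 was at 0.368 FPKM in untreated and 20.6 FPKM in drug-treated cells. MAGEC2 was at 0.31 FPKM untreated and 18.1 FPKM treated. MAGEA12, MAGEA11 and MAGEA4 ended at 13.8, 13.3 and 11.9 FPKM from control values of at most 0.245 FPKM, and MAGEB1 at 9.67 FPKM from 0. All of these lie on the X chromosome.

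Of the SSX, GAGE, PAGE and XAGE antigens with CTAG2, 8 of 18 entries under 1 FPKM in control were switched on. CTAG2, a relative of the NY-ESO-1 antigen, was at 0.658 FPKM without and 51.1 FPKM with the drug. PAGE5 was at 1.09 FPKM in control against 43.1 FPKM after treatment, and PAGE2B at 0.603 FPKM in untreated and 24.6 FPKM in drug-treated cells. SSX1, known from gene fusions in synovial sarcoma, and its relative SSX3 were at 0.169 and 0.331 FPKM in control and at 22.6 and 19.8 FPKM in treated cells. PAGE2 and PAGE1 were listed at 0 in control and stood at 14.6 and 9.68 FPKM in treated cells.

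Sperm and spermatid genes were switched on in 8 of 29 entries. TKTL1, a transketolase-like gene, had the highest treated level on the germline list, with 2.42 FPKM untreated and 100.1 FPKM treated, a ratio of 41.4. The SPANX genes SPANXC and SPANXN3, which encode sperm nuclear proteins, were at 0 in control and at 28.3 and 24.2 FPKM in treated cells. LUZP4 was at 0.364 FPKM without and 18.3 FPKM with the drug. BRDT, the testis-specific bromodomain protein, was at 6.85 FPKM from 0, and TEX11 at 5.57 FPKM from 0. PRAME was already present, with 19.2 FPKM in control against 59.3 FPKM after treatment. LDHC, the sperm lactate dehydrogenase, was 1 of 3 in its group below control, with 14.4 FPKM in untreated and 3.13 FPKM in drug-treated cells.

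Germ cell RNA and piRNA genes, which include the machinery that silences transposons in the germline, were switched on in 5 of 18 entries. GTSF1, a cofactor of piRNA-guided Piwi proteins, was at 0.303 FPKM untreated and 76.3 FPKM treated. MAEL, another piRNA pathway gene, was at 0.124 FPKM without and 19.1 FPKM with the drug. DAZL, an RNA-binding protein needed for germ cell development, was at 0 in control and 16.6 FPKM in treated cells. The tudor-domain genes TDRD12 and TDRD1 were at 0.131 and 0 FPKM in control and at 8.11 and 5.56 FPKM in treated cells. Meiosis genes differed from these groups in count, since 0 of 17 under 1 FPKM in control reached 5 FPKM, although 3 came from 0 and 3 were 2-fold higher.

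**Figure D3:**
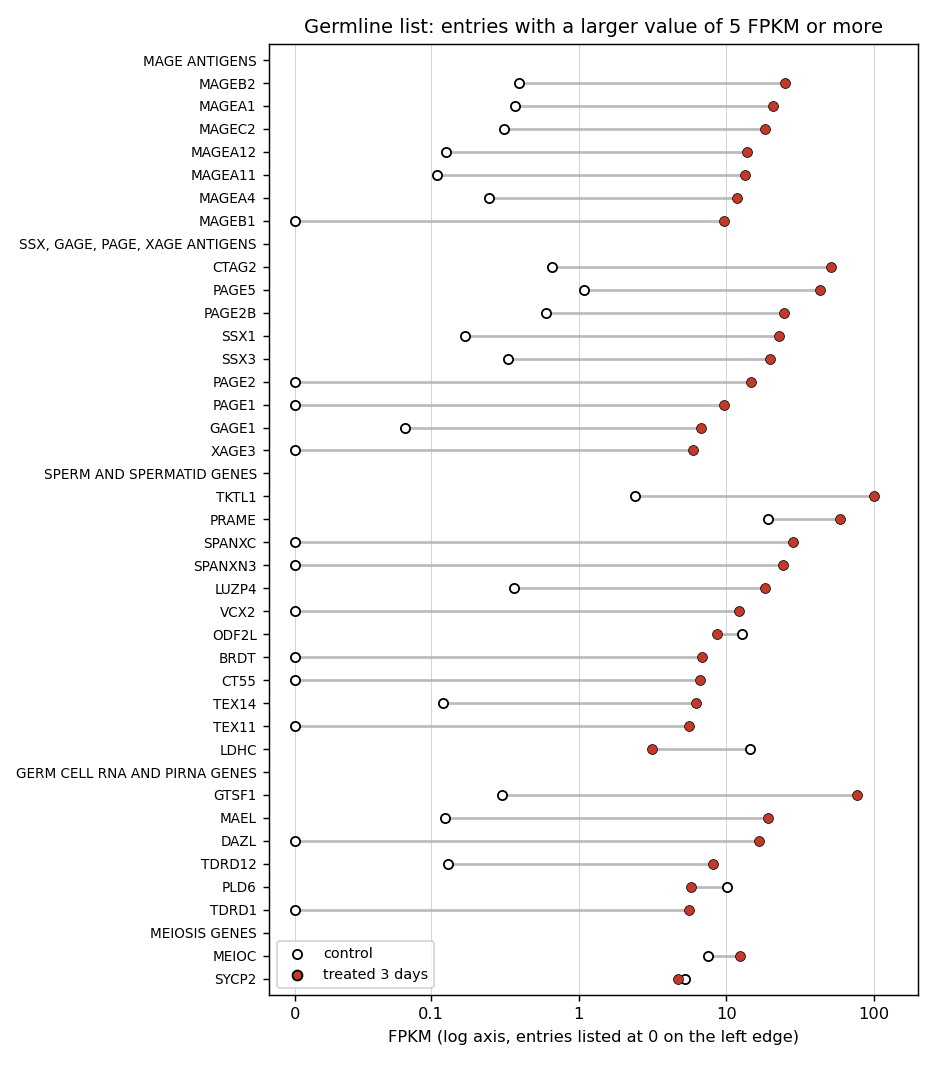
FPKM in control (open circles) and treated cells (red) on a log axis for every entry of the germline list whose larger value is 5 FPKM or more, by role, with values of 0 on the left edge. Except for LDHC, ODF2L, PLD6 and SYCP2, every treated point lies to the right of its control point.

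Promoter windows were compared for protein-coding genes outside chromosome 8, each of 300 bases around the first listed start (250 before and 50 after). A window was found for 24 of the 28 switched on germline genes, and these held a median of 12.5 CpG sites, with an observed-over-expected CpG ratio of 0.520. The 44 windows of germline genes under 1 FPKM in both groups (of 49) held 9.5 sites and a ratio of 0.408. All 13211 windows held a median of 23 sites and a ratio of 0.771. The 124 windows of all switched on protein-coding genes (of 154) held 22 sites and a ratio of 0.741, near the overall median. That median includes expressed genes, whereas switched on genes come from those under 1 FPKM in control. The 4666 windows found for the latter (of 5961) held a median of 7 sites and a ratio of 0.355. Their coverage, 78.3%, was under the limit set for comparisons, so a difference from them in CpG content was not tested. The E-box letters CACGTG, which read the same on both strands, occurred in 7 of the 24 switched on germline windows (29.2%). They occurred in 4 of 44 germline windows under 1 FPKM in both groups (9.09%) and in 14 of 93 windows of the germline list (15.1%). Protein-coding windows held them in 8.96% and all 35116 windows of that length in 7.26%. The 7 included GAGE1, PAGE1, PAGE2B and XAGE3, and the 4 were GAGE10, GAGE12J, GAGE2A and PAGE4. Windows of such related copies are not independent, so these shares were not read as going with the switch. The other motifs searched in these 24 windows on both strands were TGATGNAA (4.17%, beside 3.62% of all windows), TTCNNGAA (8.33%, beside 7.74%), GGCGGGAA (4.17%, beside 3.16%), CCGGAAG (12.5%, beside 10.3%), TGACGTCA (0%, beside 1.85%) and TGCNCNC (58.3%, beside 55.9%). Protein-coding windows held these motifs in 2.56%, 6.53%, 4.37%, 14.2%, 2.73% and 60.8%, in the same order. For GGCGGGAA, CCGGAAG and TGCNCNC the 24 windows were thus above all windows but below protein-coding windows. A base could count toward more than 1 motif, and a match describes letters only.

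Outside the germline list, the entries from control at 0 with the highest treated values held both tissue-restricted and broadly used genes. The named ranking took the 20 highest that span at least 500 bases, and 11 of these had q under 0.05 in the authors' deposited table. The metallothionein gene MT1E, a zinc and copper buffer, was at 34.9 FPKM in treated cells, and MT1A at 22.97 FPKM. S100A6, a calcium-binding protein, was at 16.6 FPKM. MAP1LC3A, an autophagosome protein, was at 16.8 FPKM. PHLDA2, an imprinted placental growth gene, was at 14.2 FPKM, and RHOXF1, an X-linked reproductive homeobox gene, at 12.3 FPKM. KHDC1L stood at 12.3 FPKM and the HOXB antisense RNA HOXB-AS3 at 21.4 FPKM.

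Some entries listed at 0 in control belong to genes that cells need, so such a 0 may be a failed estimate and says only how the entry is listed. DDX3X, an RNA helicase used in translation, was at 0 in control and 169.5 FPKM in treated cells, where the authors' deposited table lists q = 1, and stood at 125.8 FPKM in the cells kept in culture after drug removal. KMT2A, a histone methyltransferase, was at 0 and 14.9 FPKM, and the authors' deposited table lists q = 1 there too. DPM3, which anchors an enzyme of glycosylation, was at 0 and 36.5 FPKM, but there the authors' deposited table lists q = 0.0147. Of the 20 named entries from 0, 4 (MIR3661, C19orf33, TMEM132D-AS1 and ST8SIA6-AS1) span more than 1.5 times the length of the gene they are named for, so their reads may come from neighbouring genes. The same limit holds for VIM, MAGEA12, MEST, NNAT, ATF5, DNAJB9 and MBD6, which are described elsewhere.

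Imprinted genes, expressed from 1 parental copy, included both H19, far above control, and many near it. Of 25 in the set, 6 came from control at 0, 7 were at least 2-fold higher, 11 were within 2-fold and 1 was at least 2-fold lower, beside 5.5% from 0, 12.1% higher and 10.5% lower over all entries. Of the 6 at 10 FPKM or more in both groups, 4 were below control, with a median ratio of 0.69. H19, a maternally expressed lncRNA, was at 9.49 FPKM in control against 489.9 FPKM after treatment, a ratio of 51.6. PEG10, a paternally expressed gene of retrotransposon origin, was at 1.97 FPKM in untreated and 27.97 FPKM in drug-treated cells. CDKN1C, a cell cycle inhibitor, was at 4.4 FPKM untreated and 12.8 FPKM treated. MEST and NNAT were at 0 in control and at 10.3 and 9.75 FPKM in treated cells, and NLRP2 was at 0.0559 FPKM without and 10.3 FPKM with the drug. The authors' deposited table gives H19 q = 0.542 and PEG10 q = 0.0147. The 250 bases upstream of the H19 start (chr11:2001267-2001516, minus strand, GRCh38.p14) are shown because H19 had the highest treated level among the imprinted genes, and they hold 4 CpG sites, in capitals.
H19: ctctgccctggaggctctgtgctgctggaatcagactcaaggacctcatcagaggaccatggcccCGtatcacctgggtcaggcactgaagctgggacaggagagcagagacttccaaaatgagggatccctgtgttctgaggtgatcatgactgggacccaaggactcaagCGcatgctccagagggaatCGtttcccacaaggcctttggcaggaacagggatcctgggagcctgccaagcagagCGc

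Genes derived from retroelements, whose proteins descend from Gag, included 3 from 0, 7 at least 2-fold higher, 7 within 2-fold and 1 lower among 18 in the set, beside the same shares over all entries (5.5%, 12.1% and 10.5% lower). PNMA5 was at 0.37 FPKM in control against 37.9 FPKM after treatment. ZCCHC12 was at 6.58 FPKM in untreated and 60.6 FPKM in drug-treated cells. RTL8A and LDOC1 were at 13.1 and 4.09 FPKM in control and at 27.96 and 12.2 FPKM in treated cells. PNMA2 was lower, with 5.7 FPKM untreated and 2.32 FPKM treated.

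Developmental genes were above control more often than below it, mostly at low levels. Above control were 22 of 26 HOX cluster genes, 9 of 16 Notch genes and 9 of 11 WNT antagonist and feedback genes. So were 11 of 13 pluripotency and early embryo genes and 8 of 13 kidney and adrenal genes, beside 6301 of all 12396 entries. For the lists that follow, the shares over all entries of the set were 5.5% from 0, 12.1% higher, 71.0% within 2-fold and 10.5% lower. Of 26 HOX cluster genes in the set, 4 came from 0, 6 were at least 2-fold higher and 2 at least 2-fold lower. HOXC12 was at 0 and 8.21 FPKM, HOXC10 at 1.68 and 8.37 FPKM, and HOXD11 was lower, at 29.3 and 14.5 FPKM. In the Notch pathway, 2 of 16 came from 0, 4 were 2-fold higher and none was 2-fold lower. The receptor gene NOTCH1 was at 3.52 FPKM without and 13.99 FPKM with the drug, the ligand gene JAG1 at 5.82 FPKM in control against 13.9 FPKM after treatment, and the target gene HES5 at 0 in control and 10.4 FPKM in treated cells. Of 11 WNT antagonist and feedback genes, 2 came from 0, 4 were 2-fold higher, 5 within 2-fold and none 2-fold lower. The WNT antagonist gene DKK1 was at 0.231 FPKM in untreated and 14.3 FPKM in drug-treated cells. Of 13 pluripotency and early embryo genes, 4 came from 0, 3 were 2-fold higher, 4 within 2-fold, 1 lower and 1 ended at 0. Among them, TFAP2C was at 3.89 FPKM untreated and 19.8 FPKM treated, and ZFP42 at 0 and 5.21 FPKM. Kidney and adrenal genes went both ways: of 13 in the set 3 came from 0, 3 were at least 2-fold higher, 2 within 2-fold, 4 at least 2-fold lower and 1 listed at 0 in treated cells. SIX2, a gene of kidney progenitors, was at 0.853 FPKM without and 9.83 FPKM with the drug. The tumour suppressor genes often found methylated in cancer were mostly near control, with 17 of 30 within 2-fold, 3 from 0, 8 higher and 2 lower; TIMP2 was at 5.09 FPKM in untreated and 16.5 FPKM in drug-treated cells.

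Of 7 epithelial and keratin genes in the set, 1 came from 0, 2 were at least 2-fold higher, 2 within 2-fold, 1 lower and 1 listed at 0 in treated cells. The shares over all entries were 5.5%, 12.1%, 71.0%, 10.5% and 0.904% in that order. The 2 that were higher, the keratin genes KRT19 and KRT17, were at 29.9 and 16.99 FPKM in control and at 98.7 and 73.8 FPKM in treated cells. Metallothioneins, in their cluster on chromosome 16, were mostly above control. Of 8 in the set, 3 came from 0, 3 were at least 2-fold higher, 1 was within 2-fold and 1 lower, beside the same shares. MT2A was at 41.6 FPKM untreated and 89.9 FPKM treated, MT1G at 0.948 FPKM without and 15.8 FPKM with the drug, and MT1F, in the other direction, at 16.2 FPKM in control against 0.584 FPKM after treatment. These genes are near-identical, so reads may have been divided differently among them in each group.

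Interferon-stimulated genes, which can be induced when cells sense double-stranded RNA, lay on both sides of control. Of 33 in the set, 1 came from 0, 9 were at least 2-fold higher, 16 within 2-fold and 7 at least 2-fold lower. In the whole set these shares were 5.5%, 12.1%, 71.0% and 10.5%. ISG15, a ubiquitin-like protein, was at 0.398 FPKM in untreated and 25.9 FPKM in drug-treated cells. IFI27 was at 0.607 FPKM untreated and 15.6 FPKM treated. The transcription factor gene IRF7 was at 9.81 FPKM without and 20.7 FPKM with the drug, and OAS3, a sensor of double-stranded RNA, at 2.62 FPKM in control against 9.004 FPKM after treatment. In the other direction, IFI35 was at 14.999 FPKM in untreated and 4.27 FPKM in drug-treated cells, USP18 at 7.17 FPKM untreated and 1.37 FPKM treated and ISG20 at 4.9 FPKM without and 0.371 FPKM with the drug. Of 10 MHC class I pathway genes in the set 9 were within 2-fold, with TAPBP at 5.46 and 13.1 FPKM.

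Genes of the amino acid response were lower in treated cells almost throughout. ATF4 is a transcription factor made when cells run short of amino acids or misfold protein; its targets synthesise and import amino acids and charge transfer RNAs. Of 46 of its list in the set, 44 were below control, beside 49.2% of all entries in the set. Of the 46, 23 were at least 2-fold lower, 22 within 2-fold and 1 at least 2-fold higher, beside 10.5%, 71.0% and 12.1%. The median ratio over the 44 entries at 1 FPKM or more in both groups was 0.53, beside 0.97 for all 10455 such entries. At 10 FPKM or more in both groups, 11 of 31 were at least 2-fold lower, beside 4.07% of all entries at that level. With the treated values multiplied by 1.13, 44 of 46 were still below control, beside a median ratio of 1.09 over all entries.

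CHAC1, STC2 and DDIT4 were the list's members among the 20 smallest ratios of the table, and the promoters of CHAC1 and DDIT4 are shown. Capitals mark TGATGNAA, letters of the composite element that ATF4 binds, on either strand. CHAC1 (chr15:40953221-40953470, plus strand, GRCh38.p14) has 1 match in the 250 bases upstream of its start and DDIT4 (chr10:72273674-72273923, plus strand, GRCh38.p14) has 0.
CHAC1: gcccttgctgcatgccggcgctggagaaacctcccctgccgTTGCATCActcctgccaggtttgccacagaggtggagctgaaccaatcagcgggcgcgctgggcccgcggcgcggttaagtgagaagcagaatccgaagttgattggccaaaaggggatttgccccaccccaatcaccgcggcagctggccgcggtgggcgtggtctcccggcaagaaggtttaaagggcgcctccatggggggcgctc
DDIT4: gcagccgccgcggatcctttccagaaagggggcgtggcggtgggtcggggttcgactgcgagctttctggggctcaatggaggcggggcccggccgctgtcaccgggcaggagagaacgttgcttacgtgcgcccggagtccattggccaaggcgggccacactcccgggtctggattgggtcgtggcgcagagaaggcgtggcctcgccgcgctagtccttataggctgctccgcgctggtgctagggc

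The list held TGATGNAA in 12 of the 39 windows of 300 bases that could be matched (30.8%), beside 2.56% of protein-coding windows and 3.62% of all windows. Among members at least 2-fold lower, 4 of 18 windows held it (22.2%). Windows were found for 78.3% of those members, under the limit set for comparisons. Whether the motif goes with the lower values was therefore not tested.

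Among the transcription factors and signalling genes of the response, 11 of 17 were at least 2-fold lower. ATF4 itself was at 492 FPKM in control against 217 FPKM after treatment. DDIT4, an inhibitor of mTORC1, was at 154 FPKM in untreated and 19.7 FPKM in drug-treated cells, which is 7.84-fold lower. CHAC1, which degrades glutathione, was at 33.8 FPKM untreated and 2.29 FPKM treated, 14.8-fold lower. TRIB3, a pseudokinase that restrains ATF4, was at 68.8 FPKM without and 13.4 FPKM with the drug. STC2, a secreted glycoprotein, was at 19.4 FPKM in control against 2.18 FPKM after treatment. NUPR1 was at 6.76 FPKM in untreated and 0.64 FPKM in drug-treated cells. KLHL24 was at 25.3 FPKM untreated and 8.02 FPKM treated, and CEBPG, a partner of ATF4, at 53.6 FPKM without and 21.5 FPKM with the drug. ATF5 was the member that stood higher by 2-fold, with 5.05 FPKM in control against 18.7 FPKM after treatment. The authors' deposited table gives DDIT4, TRIB3 and KLHL24 q under 0.05.

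Amino acid synthesis genes were at least 2-fold lower in 9 of 13. ASNS, which makes asparagine, was at 137 FPKM in untreated and 26.4 FPKM in drug-treated cells. The serine pathway enzymes PHGDH, PSAT1 and PSPH were at 145, 62.1 and 33.9 FPKM in control and at 46.8, 16.8 and 8.04 FPKM in treated cells. MTHFD2, of the mitochondrial folate pathway, was at 175 FPKM untreated and 70.1 FPKM treated. PCK2, CTH, GPT2 and ALDH1L2 ended between 2.62 and 7.68 FPKM from control values between 8.83 and 20.8 FPKM. ALDH18A1, of proline synthesis, was above control with 66.1 FPKM without and 97.5 FPKM with the drug.

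Transporters and transfer RNA synthetases were lower by less. All 6 amino acid transporter genes in the set were below control, none by 2-fold; SLC3A2 was at 255 FPKM in control against 144 FPKM after treatment, SLC38A2 at 182 FPKM in untreated and 99.2 FPKM in drug-treated cells, SLC7A5 at 60.8 FPKM untreated and 44.9 FPKM treated and SLC1A5 at 179 FPKM without and 132 FPKM with the drug. All 10 cytosolic synthetase genes of the list were below control, 3 of them at least 2-fold: AARS1 with 87.6 FPKM in control against 31.3 FPKM after treatment, GARS1 with 148 FPKM in untreated and 64.2 FPKM in drug-treated cells and CARS1 with 47.9 FPKM untreated and 23.5 FPKM treated. The median ratio was 0.62 for transporters and 0.54 for synthetases, between the 0.37 of the synthesis genes and 0.97 for all entries.

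**Figure D4:**
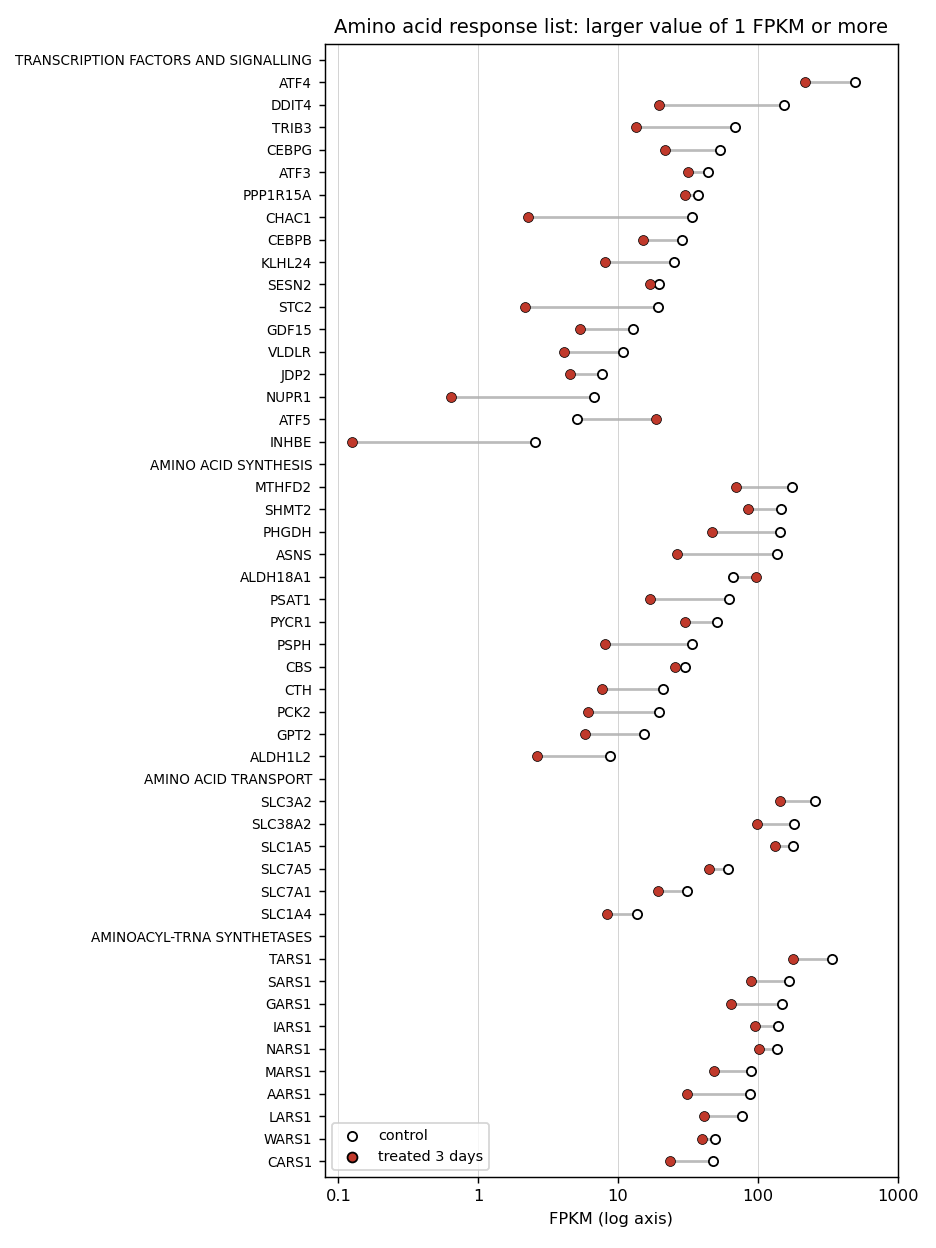
FPKM in control (open circles) and treated cells (red) on a log axis for the 46 amino acid response entries in the set, by role and in order of the control value. Only ATF5 and ALDH18A1 have the treated point on the right of the control point; the widest gaps are those of INHBE, CHAC1, NUPR1, STC2 and DDIT4.

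Protein folding genes were divided. Heat shock chaperones of the cytosol stood higher: 11 of 33 were at least 2-fold higher and 1 was lower, beside 12.1% of all entries higher. HSPA8, the constitutive HSP70, was at 229.8 FPKM without and 936 FPKM with the drug. DNAJA1, its co-chaperone, was at 56.2 FPKM in control against 180.2 FPKM after treatment. HSP90AA1, the inducible HSP90, was at 203 FPKM in untreated and 408 FPKM in drug-treated cells, and HSPH1 at 12.3 FPKM untreated and 27.9 FPKM treated. The inducible HSPA1A was at 1.33 FPKM without and 25.3 FPKM with the drug and its near-identical neighbour HSPA1B at 27.1 FPKM in control against 86.5 FPKM after treatment. HSPA2, a testis-enriched HSP70, was at 1.08 FPKM in untreated and 29.2 FPKM in drug-treated cells, a ratio of 26.99. All 6 subunit genes of the CCT chaperonin and all 3 mitochondrial chaperone genes in the set were within 2-fold. Letters of the heat shock element, TTCNNGAA on either strand, occurred in 9 of 39 windows of this list (23.1%) and in 7.74% of all windows. Among the 11 members at least 2-fold higher, 2 windows held them (18.2%), no more often than in the list as a whole. The 250 bases upstream of HSPA2 (chr14:64540491-64540740, plus strand, GRCh38.p14) are shown because it had the largest ratio of the list, with its 18 CpG sites in capitals.
HSPA2: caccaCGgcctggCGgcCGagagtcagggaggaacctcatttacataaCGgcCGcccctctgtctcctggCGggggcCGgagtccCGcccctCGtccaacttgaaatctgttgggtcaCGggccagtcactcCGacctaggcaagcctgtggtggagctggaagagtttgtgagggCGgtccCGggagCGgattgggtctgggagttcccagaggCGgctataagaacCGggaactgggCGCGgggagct

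Of 25 endoplasmic reticulum folding genes in the set, 18 were within 2-fold, 5 at least 2-fold higher and 2 lower. All entries of the set gave 71.0%, 12.1% and 10.5%. CRELD2 was at 0.9 FPKM untreated and 15.2 FPKM treated and SDF2L1 at 3.58 FPKM without and 13.3 FPKM with the drug. SELENOS and DERL2, of the degradation pathway, were at 12.9 and 12.8 FPKM in control and at 28.1 and 27.5 FPKM in treated cells. XBP1, a transcription factor of the unfolded protein response, was lower with 182 FPKM in control against 67.9 FPKM after treatment, as was DNAJB9 with 10.5 FPKM in untreated and 4.86 FPKM in drug-treated cells.

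Immediate early genes, which respond to growth factors and stress within minutes, were higher in 10 of 21, with 1 more from 0 and 1 lower, beside 12.1% higher and 10.5% lower over all entries. IER3 was at 14.97 FPKM untreated and 66.7 FPKM treated. CCN2, a secreted matrix protein, was at 5.36 FPKM without and 30.9 FPKM with the drug. The phosphatase gene DUSP1 was at 40.4 FPKM in control against 88.9 FPKM after treatment, while DUSP6 was lower at 4.84 FPKM in untreated and 0.802 FPKM in drug-treated cells. FOSL1 and NR4A1 were at 0.126 and 0.239 FPKM in control and at 9.84 and 9.1 FPKM in treated cells. Among actin-binding genes, 9 of 34 were at least 2-fold higher and none was 2-fold lower, beside the same shares. TMSB4X, which binds monomeric actin, was at 112 FPKM untreated and 609 FPKM treated. FLNA, a filament crosslinker, was at 97.9 FPKM without and 412 FPKM with the drug. TPM2, a tropomyosin, was at 4.9 FPKM in control against 42.5 FPKM after treatment, and FHL1 at 148 FPKM in untreated and 329 FPKM in drug-treated cells. Of the 34, 29 were above control. CAVIN1, which builds caveolae, was at 22.97 FPKM untreated and 84.6 FPKM treated, although 5 of 6 caveola genes in the set were within 2-fold.

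Replication-dependent histone genes separated by their control level. Among 63 entries, 17 were at least 2-fold higher, 32 within 2-fold, 13 lower and 1 listed at 0 in treated cells. All 17 that were higher came from the 23 entries under 20 FPKM in control, whose summed level was 143 FPKM in control and 2809 FPKM under the drug. In all entries of the set under 20 FPKM in control, 16.9% were 2-fold higher. Of the 37 entries at 100 FPKM or more in control, 11 were at least 2-fold lower and none 2-fold higher, beside 7.47% lower among all entries at that level. Their median ratio was 0.60. The testis-type genes H2BC1 and H2AC1 were at 9.41 and 3.71 FPKM in control and at 621 and 274 FPKM in treated cells. H3C12 was at 10.02 FPKM without and 367 FPKM with the drug, and H1-1, a linker histone, at 0.957 FPKM in control against 119 FPKM after treatment. In the other direction H3C4 was at 2626 FPKM in untreated and 739 FPKM in drug-treated cells and H2AC6 at 1301 FPKM untreated and 401 FPKM treated. Histone genes share near-identical coding sequence, so reads may have been divided differently among them.

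Genes of the ribosome were mostly within 2-fold and below control. Of 77 cytosolic ribosomal protein genes in the set, 71 were within 2-fold, 5 at least 2-fold lower and 1 from 0, and 58 were below control, or 45 with the treated values multiplied by 1.13. Beside these, 71.0% of all entries were within 2-fold, 10.5% lower and 5.5% from 0. Below control were 49.2% of all entries, or 4937 of 12396 after that scaling. RPL32 was at 34604 FPKM without and 16486 FPKM with the drug and RPS27 at 73.6 FPKM in control against 23.2 FPKM after treatment. RPS3A was at 1535 FPKM in untreated and 96.4 FPKM in drug-treated cells, for which the authors' deposited table lists q = 0.939. Ribosomal proteins have many processed pseudogenes, and several of these genes host small nucleolar RNAs in their introns. TPT1, a highly expressed growth-related gene, was at 32894 FPKM untreated and 17456 FPKM treated.

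Small RNA genes gave the highest values in the RefSeq table, where a short length inflates FPKM. Entries under 500 bases numbered 723, of which 102 were in the set: 16 from control at 0, 20 at least 2-fold higher, 50 within 2-fold, 13 lower and 3 listed at 0 in treated cells. Over all entries of the set, 5.5% came from 0, 12.1% were higher, 71.0% within 2-fold, 10.5% lower and 0.904% ended at 0. SNAR genes, primate noncoding RNAs made by RNA polymerase III and enriched in testis, were higher: of 12 in the set 4 came from 0, 6 were at least 2-fold higher, 1 was within 2-fold and 1 ended at 0. SNAR-E was at 6036 FPKM without and 22814 FPKM with the drug, SNAR-C3 at 104 FPKM in control against 2651 FPKM after treatment and SNAR-F at 155 FPKM in untreated and 1198 FPKM in drug-treated cells. The copies are near-identical, so the share of reads given to each is uncertain. The 13 SNAR entries summed to 6484 FPKM in control and 30042.5 FPKM under the drug. The vault RNA VTRNA1-1 was at 46294 FPKM untreated and 82845 FPKM treated and the neighbouring VTRNA1-2 at 228176 FPKM without and 229483 FPKM with the drug. Of 17 small nucleolar and Cajal body RNA genes in the set 13 were below control, 4 of them at least 2-fold. Of all entries in the set, 49.2% were below control. SNORA18 was at 284386 FPKM in control against 213976 FPKM after treatment and SNORD60 at 138886 FPKM in untreated and 89417 FPKM in drug-treated cells. SNORD116-16, from the imprinted Prader-Willi cluster, was at 2494 FPKM in control and listed at 0 in treated cells.

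The enzymes that the drug acts on were near control, and the kinase that activates it was lower. The transcript of the maintenance methyltransferase DNMT1, main target of the drug, measured 43.5 FPKM untreated and 53.5 FPKM treated. DNMT3A and DNMT3B, which methylate new sites, were at 5.16 and 16.03 FPKM in control and at 9.18 and 25.8 FPKM in treated cells. UHRF1, which guides DNMT1, was at 35.03 FPKM without and 29.9 FPKM with the drug, and UHRF2 at 33.5 FPKM in control against 18.3 FPKM after treatment. Of 16 methylation genes in the set 15 were within 2-fold, beside 71.0% of all entries. The other was MBD6 with 0.938 FPKM in untreated and 3.8 FPKM in drug-treated cells. DCK, the kinase that carries out the first phosphorylation of the drug, was at least 2-fold lower with 37.2 FPKM untreated and 15.3 FPKM treated. CDA, which deaminates it, was at 1.71 FPKM without and 2.22 FPKM with the drug. The nucleoside transporter gene SLC29A3 was at 1.48 FPKM in control against 9.02 FPKM after treatment and SLC29A4 at 8.68 FPKM in untreated and 3.39 FPKM in drug-treated cells.

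Several further sets stayed near control, all counted in the set of sizes. Of all its entries, 71.0% were within 2-fold, 12.1% higher, 10.5% lower and 5.5% from 0. All 24 repressive chromatin genes were within 2-fold, among them EZH2 with 40.4 FPKM untreated and 27.5 FPKM treated, SETDB1 with 22.5 FPKM without and 22.7 FPKM with the drug and TRIM28 with 91.6 FPKM in control against 118 FPKM after treatment. Of 38 DNA replication genes 37 were within 2-fold, the other being PRIM1 with 79.9 FPKM in untreated and 34.4 FPKM in drug-treated cells. Of 36 mitosis genes 34 were within 2-fold; MKI67 was at 32.8 FPKM untreated and 75.2 FPKM treated and CENPA at 37.4 FPKM without and 15.6 FPKM with the drug. Of 67 oxidative phosphorylation subunit genes 66 were within 2-fold, and COX7B2, a testis-type subunit, was at 0 and 9.83 FPKM. Of 35 p53 and DNA damage genes 28 were within 2-fold, 5 were higher and 2 lower: CCNG1 was at 373 FPKM in control against 152 FPKM after treatment and PMAIP1 at 152 FPKM in untreated and 73.3 FPKM in drug-treated cells, while PLK2 was at 11.5 FPKM untreated and 27.9 FPKM treated. Of 25 housekeeping genes 24 were within 2-fold, with a median ratio of 1.00. Among 395 zinc finger genes, 307 were within 2-fold, 36 higher, 46 lower and 6 from 0.

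Among entries with the largest ratios (at least 5 FPKM in one group and 1 FPKM in the other), 6 of the top 20 lie on the X chromosome. DUSP9, an X-linked phosphatase of the MAP kinase pathway, was at 2.21 FPKM without and 44.6 FPKM with the drug, and MIR503HG, a host gene of microRNAs, at 3.48 FPKM in control against 52.7 FPKM after treatment. ALPG, a germ cell alkaline phosphatase, was at 1.53 FPKM in untreated and 31.3 FPKM in drug-treated cells. FSTL3, which binds activin, was at 1.28 FPKM untreated and 17.5 FPKM treated. Other large ratios came with q near 1: UNC119B was at 26.8 FPKM without and 603 FPKM with the drug with q = 0.935 and NPC2 at 44.7 FPKM in control against 693 FPKM after treatment with q = 0.926, both q from the authors' deposited table. DGCR8, a cofactor of microRNA processing, was at 16.01 FPKM in untreated and 269.7 FPKM in drug-treated cells, for which the authors' deposited table lists q = 0.274. In that ranking 2 of 20 had q under 0.05 in the authors' deposited table.

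The smallest ratios held CHAC1, STC2 and DDIT4 of the amino acid response and 17 others. FOXP2, a forkhead transcription factor, was at 11.3 FPKM untreated and 1.27 FPKM treated. NIBAN1, a stress-response gene, was at 15.04 FPKM without and 2.09 FPKM with the drug. DNAJC12, a co-chaperone, was at 27.04 FPKM in control against 3.33 FPKM after treatment. APOC1, an apolipoprotein, was at 51.96 FPKM in untreated and 6.46 FPKM in drug-treated cells. LINC01012, a noncoding RNA, was at 26.7 FPKM untreated and 1.59 FPKM treated, the smallest ratio of the ranking. None of the 20 lies on the X chromosome. Of the entries listed at 0 in treated cells, the highest in control that span at least 500 bases and match their gene's length were ABCC6P2, a pseudogene, at 27.5 FPKM, ING2-DT at 20.4 FPKM and C6orf52 at 14.2 FPKM. MIR5000, at 168 FPKM in control, spans more than its gene.

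Noncoding genes within the RefSeq table left the 2-fold band more often than protein-coding genes, which were not matched to them by level. Antisense and intergenic LINC RNA genes had median control values of 2.27 and 1.70 FPKM, beside 10.0 FPKM for all entries. The ratio spread more widely at low levels, as given above. At 10 FPKM or more in both groups, 1 of 44 lncRNA genes was 2-fold higher and 7 lower. For protein-coding genes these counts were 133 and 206 of 5352. Of 494 lncRNA genes in the set 21.9% came from control at 0, beside 4.42% of 11442 protein-coding genes. The median ratio at 1 FPKM or more in both groups was 0.758 for lncRNA genes, 0.798 for transcribed pseudogenes and 0.974 for protein-coding genes. Among 186 antisense RNA genes, 41 came from 0, 31 were higher, 45 lower and 7 ended at 0. For the 494 lncRNA genes these shares were 21.9%, 14.8%, 22.3% and 5.67%. Over all entries of the set they were 5.5%, 12.1%, 10.5% and 0.904%. SNHG1, a host of small nucleolar RNAs, was at 515 FPKM without and 169.9 FPKM with the drug.

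The X chromosome stood apart from the autosomes among genes already expressed. At 1 FPKM or more in both groups, 367 X-linked entries had a median ratio of 1.22, with 66 at least 2-fold higher and 14 lower. The 10088 autosomal entries had a median ratio of 0.96, with 809 higher and 912 lower, and the medians of single autosomes ran from 0.81 on chromosome 18 to 1.07 on chromosome 22. With the treated values multiplied by 1.13 the medians were 1.38 and 1.09, so the X chromosome remained above the autosomes while the autosomes moved to the other side of 1. At 10 FPKM or more in both groups the X-linked median was 1.12 over 190 entries, with 16 higher and 3 lower. TMSB4X and FLNA, given above, are X-linked. ZNF711, a zinc finger activator, was at 30.3 FPKM in control against 129 FPKM after treatment. HMGB3, a chromatin protein, was at 25.9 FPKM in untreated and 80.3 FPKM in drug-treated cells. CSTF2, of mRNA 3′ end processing, was at 11.3 FPKM untreated and 41.3 FPKM treated, and CETN2, a centrin, at 27.2 FPKM without and 80.8 FPKM with the drug.

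**Figure D5:**
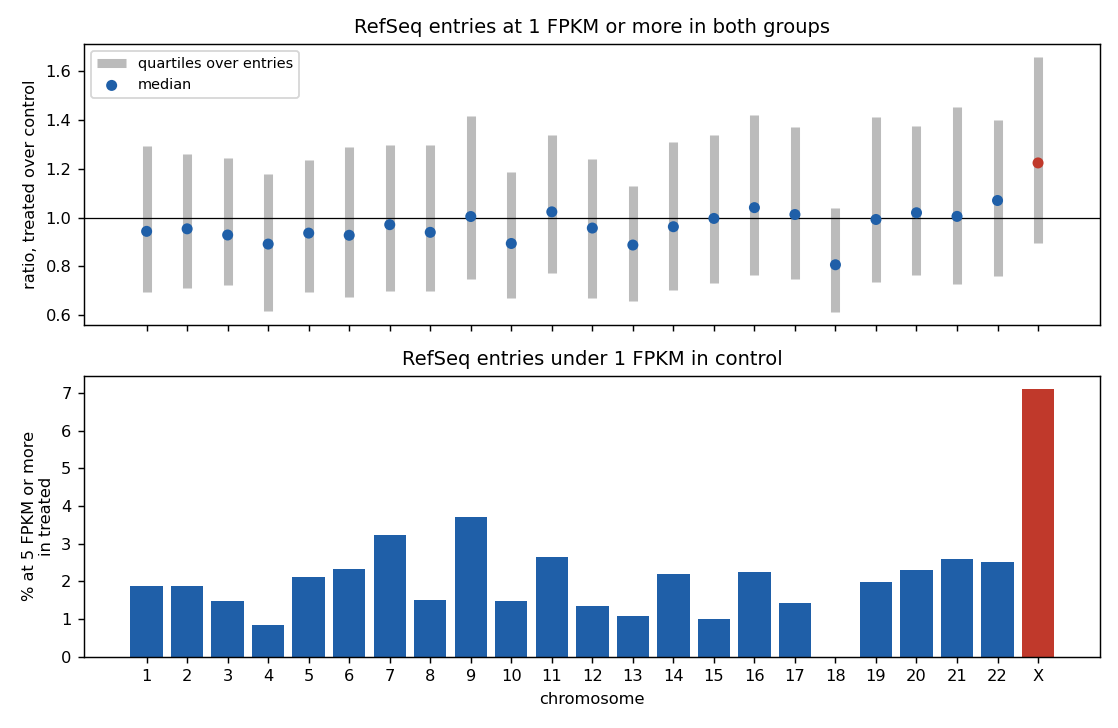
Upper panel, the ratio of treated to control (y axis) over RefSeq entries at 1 FPKM or more in both groups, by chromosome (x axis), with points at the median and bars over the quartiles of entries; the X chromosome (red) has the highest median, 1.22. Lower panel, the share of entries under 1 FPKM in control that reached 5 FPKM in treated cells (y axis, %), which is 7.11% on the X chromosome and 0% on chromosome 18.

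Switched on entries were also frequent on the X chromosome, but most were germline genes. Of 436 X-linked entries under 1 FPKM in control, 31 (7.11%) were switched on, beside 1.96% of autosomal entries. Without the germline list the shares were 2.59% (10 of 386) and 1.89%. Chromosome 4 leaned the other way, with 21 entries at least 2-fold higher and 69 lower.

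The ratio differed slightly with span and promoter composition. Among entries at 10 FPKM or more in both groups, the median ratio was 1.02 for 519 entries spanning 500 to 5000 bases and 0.928 for 220 entries of 200000 bases or more. Of the long entries 0% were at least 2-fold higher, beside 4.62% of the short ones. By the GC content of the promoter window, the median ratio was 0.907 under 50% GC (276 genes) and 1.08 at 80% GC or more (161 genes). X-linked entries were above autosomal ones in the shorter spans, with medians of 1.20 and 0.970 under 20000 bases (82 and 1947 entries) and 1.11 and 0.951 from 20000 to 100000 bases (81 and 2494 entries). At 100000 bases or more they were 0.997 and 0.934 (27 and 781 entries).

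The lncRNA table was normalised apart and its FPKM values cannot be set beside those of the RefSeq table. Of its 2704 loci in the set, 1381 (51.1%) were listed at 0 in control and 286 (10.6%) at 0 in treated cells, while 306 (11.3%) were at least 2-fold higher, 325 (12%) at least 2-fold lower and 406 within 2-fold. Against a level of 50 FPKM or more, 379 loci came from 0 and 91 ended at 0. At a geometric mean of 1 FPKM or more the log2 ratio ran from −3.45 to 4.16 (5th to 95th percentile, 1030 loci), wider than in the RefSeq table, and the median ratio was 0.861. Setting the median of loci at 1 FPKM or more in both groups to 1 multiplied the treated values by 1.16 (0.22 on the log2 scale) and gave 331 loci higher and 289 lower, which turns their order. The authors' deposited table gives q under 0.05 for 74 loci from 0 and 51 that ended at 0, beside 3 that were 2-fold higher and 1 lower.

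Loci that overlapped no RefSeq entry were more often at 0 in either group than those that did. The share from control at 0 was 43.3% among the 935 loci in the set that overlapped a RefSeq entry. It was 48.5% among 850 within 10 kb, 62.9% among 673 at 10 to 100 kb and 57.3% among 246 farther away. The share listed at 0 in treated cells was 7.91%, 11.6%, 11.7% and 13.8% in the same order. Loci in the set made up 45.5% of all loci that overlapped a RefSeq entry and 12.1% of those over 100 kb away.

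Named loci are given with the deposited coordinates, taken as hg19. The largest ratio was that of TCONS_00025350 (chr17:31271487-31277548), 2.82 kb from TMEM98, with 3.64 FPKM in untreated and 1644 FPKM in drug-treated cells. TCONS_00017243 (chrX:124453629-124459062) overlaps the X-linked gene TEX13C and was at 6.81 FPKM untreated and 541 FPKM treated, and the RefSeq entry TEX13C was at 0.333 FPKM without and 23.8 FPKM with the drug. TCONS_00019073 (chr11:10879764-10932005) overlaps ZBED5-AS1 and was at 5.26 FPKM in control against 332 FPKM after treatment, and the RefSeq entry ZBED5-AS1 was at 0.203 FPKM in untreated and 13.4 FPKM in drug-treated cells. TCONS_l2_00000833 (chr1:222988370-223010726) overlaps DISP1 and was at 14.1 FPKM untreated and 1094 FPKM treated, while the RefSeq entry DISP1 was at 1.88 and 1.01 FPKM. TCONS_00011779 (chr6:31789991-31795104) lies 0.408 kb from the heat shock gene HSPA1B and was at 0 in control and 957 FPKM in treated cells.

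On the lower side, TCONS_00011149 (chr6:2391780-2484261) overlaps GMDS-DT and was at 284 FPKM without and 1.22 FPKM with the drug, and the RefSeq entry GMDS-DT was at 2.14 and 0.505 FPKM. TCONS_00017137 (chrX:8196412-8423740), 9.13 kb from VCX3B on the X chromosome, was at 5095 FPKM in control and 0 in treated cells. TCONS_00029516 (chr22:20850199-20856009), 0.029 kb from KLHL22, was at 509.6 FPKM in control and 0 in treated cells. The neighbouring genes did not share these sizes: KLHL22 was at 15.3 and 13.5 FPKM.

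Where both tables held the same locus, directions mostly matched. With a reciprocal overlap of at least 80%, 340 pairs were found and 162 were in both sets. Of 86 pairs that were 2-fold apart or at 0 in both tables, 78 had the same direction and 8 the opposite, and a further 46 pairs were within 2-fold in both. These tables come from the same libraries, so a match is no second measurement. H19 was at 751 and 4830 FPKM in the lncRNA table. LINC00624 was at 23.8 and 881 FPKM there and at 0.292 and 13.5 FPKM in the RefSeq table. LINC01012 was at 714 and 167 FPKM in the lncRNA table, against 26.7 and 1.59 FPKM in the RefSeq table.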

How the data were processed

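Strand-specific RNA-seq libraries of ribosomal RNA-depleted HEK 293T RNA (2 control, 2 treated) were compared. The authors deposited 1 FPKM value per entry and group with the replicates combined, and q-values for each comparison, per the file headers. Cufflinks and Cuffdiff and the builds hg19 and mm9 stand in the submitters' processing notes, without versions; the coordinates are taken as hg19. Rows with cells out of place (1 RefSeq, 2 lncRNA) were left out. Of 20220 RefSeq entries, 19665 were matched to a gene symbol of RefSeq (GRCh38.p14), and lncRNA transcripts with the same locus and values were counted once.

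The values are not counts, so no count model, replicate error or test per entry was computed. Entries were classed by values alone: larger value of at least 1 FPKM, a fold of 2, and values of 0 kept apart with no ratio. Log2 changes used a pseudocount of 1. The classing was tested on simulated data. Named genes are the 20 highest from 0 and to 0, the 20 largest and smallest ratios (larger value at least 5, smaller at least 1 FPKM, span at least 500 bases), the 10 largest differences each way at 10 FPKM or more in both groups, and members of 51 gene lists past 2-fold with a larger value of at least 5 FPKM, plus defining members; for lncRNA loci 10 each. Other entries named were chosen after their values were seen. The members and lists were chosen with earlier results of these data known. Promoter windows came from RefSeq's table; comparisons were void under 80% coverage. Python 3.11.15, pandas and matplotlib were used.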

Additional observations from a re-analysis of the deposited data

How the results depend on the processing

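No paired analysis was possible because the tables hold 1 value per group, and leaving out each library could not be run for the same reason; p-values were not computed. The minimum of the larger value set the RefSeq counts. With 0.5 FPKM, 1184 entries came from control at 0, and with no minimum 2478 did and 292 ended at 0. With 5 FPKM, 95 came from 0, 812 were 2-fold higher, 796 2-fold lower and 24 ended at 0. Among protein-coding genes only, 58 ended at 0. Chosen after seeing the data, thresholds of 1 and 10 FPKM gave 75 entries switched on and 15 switched off, thresholds of 0.5 and 5 FPKM gave 37 switched off, and protein-coding genes only gave 27 switched off. With a pseudocount of 0.1 the median log2 change of the germline entries at 1 FPKM or more in either group, most of which passed through the treated value, was 5.13 in place of 2.68, and 44 of 51 lists stayed within 1.5 times of their value. Scaling by the summed FPKM moved the RefSeq counts at 10 FPKM or more in both groups from 141 higher and 223 lower to 248 and 114, and kept the counts from 0, to 0, higher and lower in the whole set within 1.5 times. Scaling the treated values to a median ratio of 1 multiplied RefSeq values by 1.03 and lncRNA values by 1.16. All 51 list medians and 79 named ratios stayed within 1.5 times, which factors of that size fix in advance. Depth in reads is unknown, and ratios of entries near 1 FPKM or listed at 0 are the least certain.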

Other observations

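Further genes stood at 5 FPKM or more in treated cells from under 1 FPKM in control without belonging to a list, and were named after their values were seen. CTCFL, the testis paralogue of the insulator protein CTCF, was at 0.242 FPKM in control against 16.7 FPKM after treatment. USP26, an X-linked testis deubiquitinase, was at 0 in control and 12.2 FPKM in treated cells, and the testis protease gene PRSS50 at 0 and 9.66 FPKM. CSAG1, another X-linked cancer-testis gene, was at 0 and 9.48 FPKM. HLA-DMB, of MHC class II peptide loading, was at 0 and 11.6 FPKM. TNC, the matrix protein tenascin C, was at 0.816 FPKM in untreated and 9.07 FPKM in drug-treated cells. SERPINB9, an inhibitor of granzyme B, was at 0.703 FPKM untreated and 9.15 FPKM treated.

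In the other direction, entries under 1 FPKM in treated cells and at 5 FPKM or more in control included genes outside the amino acid response, also named after their values were seen. SGPP2, a sphingosine-1-phosphate phosphatase, was at 12.97 FPKM without and 0.421 FPKM with the drug. GPM6A, a neuronal membrane glycoprotein, was at 9.4 FPKM in control against 0.808 FPKM after treatment. SOSTDC1, an antagonist of BMP and WNT signals, was at 8.77 FPKM in untreated and 0.252 FPKM in drug-treated cells. MIR9-2HG, a microRNA host gene, was at 6.94 FPKM untreated and 0.222 FPKM treated. DDX60, an interferon-induced helicase, was at 6.68 FPKM without and 0.883 FPKM with the drug, and APOD, an apolipoprotein, at 5.78 FPKM in control against 0.452 FPKM after treatment. PRODH, which degrades proline, was at 5.58 FPKM in untreated and 0.861 FPKM in drug-treated cells.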
